A study of Danio rerio with 4 samples.

Results

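The genes described here encode the machinery that starts transcription at promoters: the general transcription factors, the Mediator complex, the TATA-binding protein with its associated factors, and RNA polymerases I and III. They were taken as every probe set of the zebrafish genome array whose single annotated gene symbol begins with gtf2, gtf3, taf, med, tbp, polr1 or polr3, the prefixes taf and med being followed by a digit. This gave 82 probe sets for 67 genes among 15617 probe sets in all. RNA from embryonic brain was compared between 1 wild-type array and 3 arrays of foggy mutants, all labelled 36 h or 36, which was read as hours. The foggy locus encodes Spt5, a factor that travels with RNA polymerase II. The labels give neither the allele, the strain nor the number of embryos behind an array, and they do not say whether the mutant samples came from separate clutches or dissections. The p-values therefore measure only the spread among the 3 foggy arrays, which may be technical.

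Transcription of a protein-coding gene begins when TFIID, made of the TATA-binding protein and its associated factors, settles on the promoter together with TFIIA and TFIIB. TFIIF brings in RNA polymerase II, and TFIIE and TFIIH open the DNA and let the polymerase leave. Mediator carries signals from enhancer-bound factors to the polymerase. RNA polymerase I transcribes the large ribosomal RNA precursor, and RNA polymerase III transcribes transfer RNAs and other short RNAs with the help of TFIIIA and TFIIIC. Spt5 acts after these steps, in pausing and elongation.

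Most of this machinery differed little between foggy and wild-type brain, with 95% intervals within 1.5-fold either way at 62 of 71 probe sets tested. These intervals take the single wild-type array to vary like the foggy arrays, on a log2 scale that understates the change of weak signals. The count was not made over all probe sets tested, so it does not set the machinery apart from them. The quartiles of the log2 differences were -0.03 and +0.16 over the members, and -0.11 and +0.15 over all probe sets tested. A single member rose, gtf2a1, which encodes the large subunit of TFIIA, and 0 fell. The 71 were those of the 82 that were bright enough to test, covering 62 genes, and 70 of them did not pass limma's test at an adjusted p of 0.05. The 1 probe set that passed is 1.41% of the members tested, where 5.5% of all 10851 probe sets tested passed. By direction, 2.36% of all probe sets tested were called higher and 3.14% lower. At an unadjusted p under 0.05, limma placed 8 members higher and 1 lower (11.3% and 1.41% of the members), where 11.7% and 8.89% of all probe sets tested lay there.

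Signals had been scaled to a common mean before deposit, as the equal trimmed means of the 4 arrays show, so a difference here means a change compared with the rest of the same array. Differences are log2(signal + 16.3), foggy minus wild type, and understate the change of weak signals. The median difference was +0.05 over the members and +0.02 over all probe sets tested. It was +0.04, +0.05 and +0.06 in foggy arrays 1, 2 and 3 taken singly. Differences of the tested members ran from -0.41 to +0.68, inside a range of -2.97 to +1.47 for all probe sets tested. The SD of the differences from the wild-type array was 0.229, 0.150 and 0.179 over the members in foggy arrays 1 to 3, and 0.288, 0.274 and 0.274 over all probe sets tested.

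**Figure D1:**
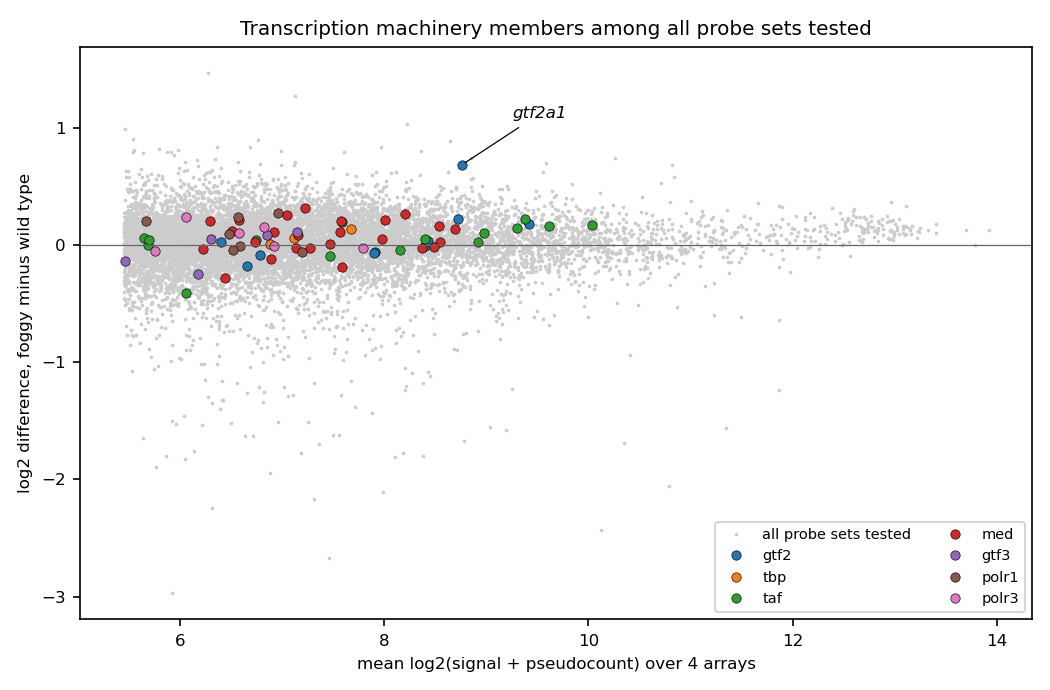
Log2 difference, foggy minus wild type, against the mean log2(signal + pseudocount) over the 4 arrays. Grey points are the 10851 probe sets tested and coloured points are the 71 member probe sets by symbol prefix. The gtf2a1 probe set stands at +0.68, and the other members lie between -0.41 and +0.31.

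All 3 foggy arrays lay above the wild-type array at 31 of the 71 member probe sets (43.7%), and all 3 lay below it at 11 (15.5%). At the other 29 the foggy arrays fell on both sides of it. Over all probe sets tested these shares were 36.2% above, 28.4% below and 35.4% on both sides. The share above grew with signal in the whole table, from 27.1% in the dimmest 25% of probe sets to 44.2% in the brightest 25%. Of the 19 members in the brightest 25%, 13 had all 3 foggy arrays above the wild type (68.4%), and their median difference was +0.14 beside +0.03 for all probe sets there. Of the 10 members in the dimmest 25%, 2 had all 3 foggy arrays above it. These shares describe 1 wild-type array against 3 and carry no test.

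**Figure D2:**
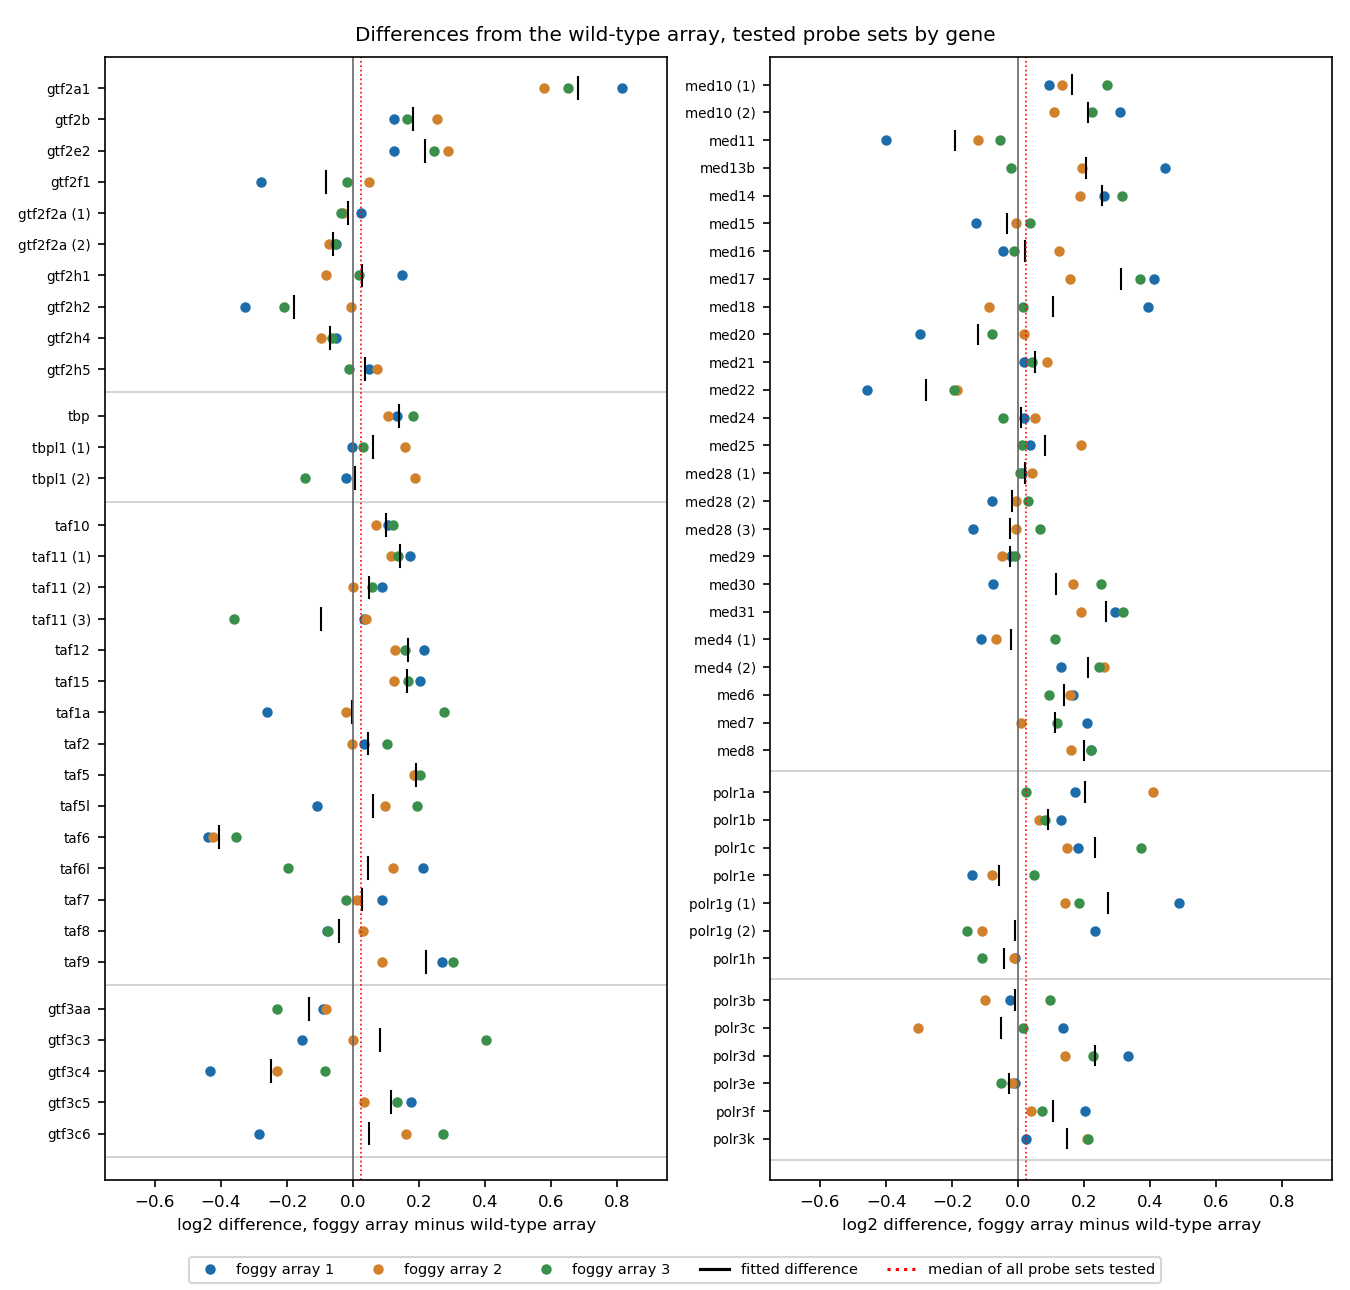
Log2 difference of each foggy array from the wild-type array for the 71 member probe sets tested, grouped by symbol prefix. Points are single arrays, black ticks the fitted difference, the solid line 0 and the red dotted line the median of all probe sets tested (+0.02). A number in parentheses tells apart the probe sets of 1 gene. The 3 gtf2a1 points lie apart on the right, and the taf6 points lie together on the left.

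Among the factors that build the initiation complex with RNA polymerase II (prefix gtf2, 10 probe sets for 9 genes, all tested), 1 rose, 0 fell and 9 did not pass. The gtf2a1 probe set, for the TFIIA large subunit, read 518, 438 and 461 in foggy arrays 1, 2 and 3 against 288 in the wild type. Every foggy array lay well above the wild type, and the gap was larger than the spread among the foggy arrays (472 ± 41.5, SD, n = 3). The difference of +0.68 (SE 0.0953, 95% interval +0.47 to +0.89) is 1.60-fold, with an adjusted p of 0.00274 in limma. The call held when any foggy array was left out, and the difference then lay between +0.61 and +0.73. Those fits keep the same single wild-type array, so they do not test whether it was typical. The adjusted p was smaller in each of them than with all 3 foggy arrays, so they were not a stricter test. Without the variance trend gtf2a1 no longer passed (adjusted p = 0.0740), nor when the wild-type array was given 2 times the SD of the foggy arrays (adjusted p = 0.226). A single probe set reads gtf2a1, so no second probe set was there to compare.

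TFIIA works beside TFIIB and TFIIE, whose probe sets lay above the wild type in all 3 foggy arrays without passing. Of the 10 gtf2 probe sets, gtf2a1 included, 3 lay so and 3 had all 3 foggy arrays below. Over all probe sets tested these shares were 36.2% and 28.4%, so the gtf2 counts do not stand out. The gtf2b probe set, for TFIIB, which positions the polymerase at the start site, read 662, 725 and 680 in the foggy arrays against 605 in the wild type, a difference of +0.18 (adjusted p = 0.196). The gtf2e2 probe set, for the small subunit of TFIIE, read 362 against 396, 445 and 431, a difference of +0.22 (adjusted p = 0.174). Both passed without foggy array 1 (adjusted p = 0.00619 and 0.00305), where 10.9% of all probe sets tested were called higher. The remaining gtf2 genes did not share this position. The TFIIF genes gtf2f1 and gtf2f2a differed by -0.08 for the first and by -0.01 and -0.06 at the 2 probe sets of the second. The TFIIH core genes gtf2h1, gtf2h2, gtf2h4 and gtf2h5 lay between -0.18 and +0.04. At gtf2h4 the foggy arrays read 223, 216 and 221 against 232 in the wild type, all slightly below it. The median over the gtf2 probe sets was +0.01, with 5 of 10 above 0, beside 54.6% of all probe sets tested. The gtf2 median turned to -0.02 under cyclic loess, to -0.01 under quantile normalization and to -0.01 without foggy array 1.

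**Figure D3:**
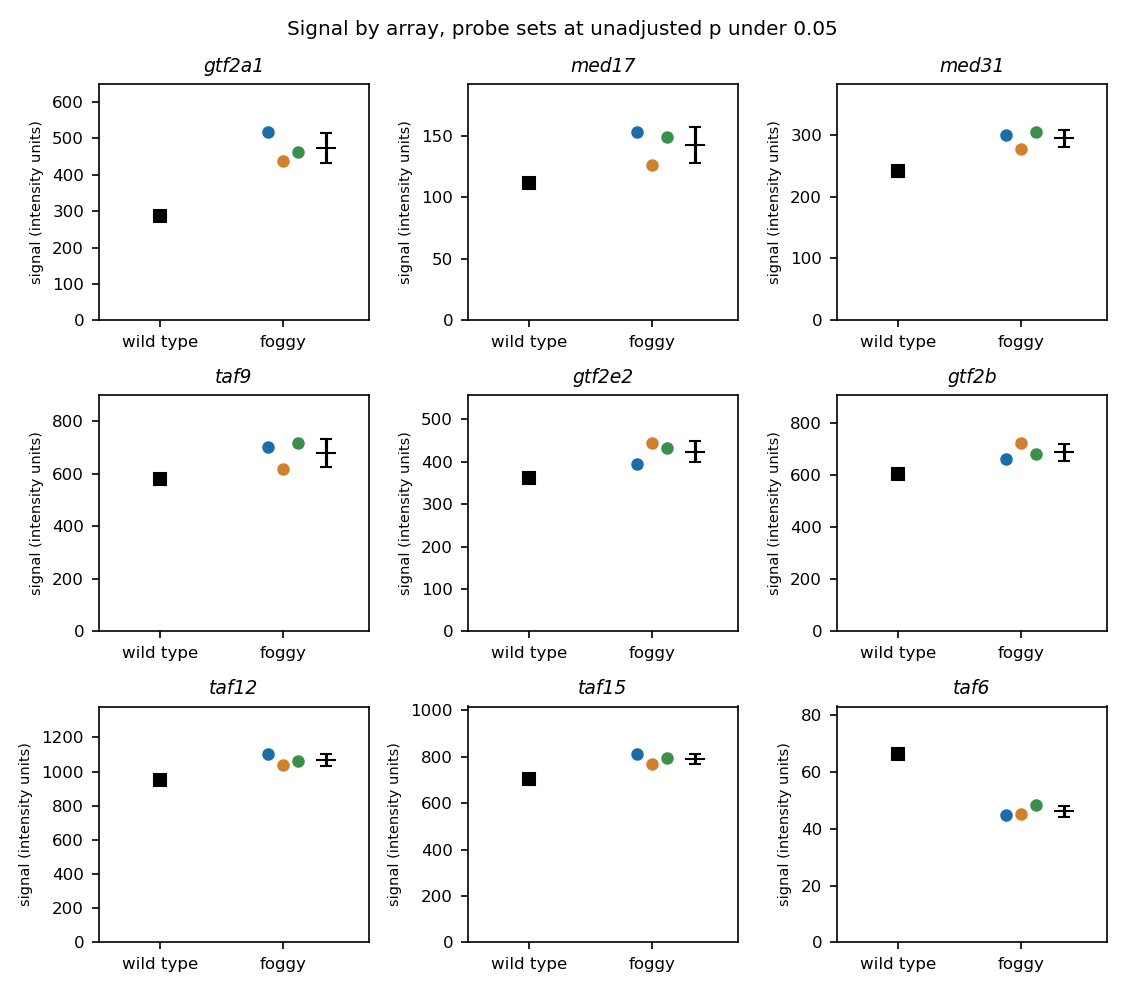
Signal in intensity units by array for the 9 member probe sets with an unadjusted limma p under 0.05, on axes that start at 0. Black squares are the wild-type array, blue, orange and green points are foggy arrays 1, 2 and 3, and the bar gives the foggy mean ± SD (n = 3). The gtf2a1 difference is 1.60-fold on the log2(signal + pseudocount) scale and passed after adjustment. Of the other 8, 7 lie above the wild type and taf6 below it.

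The TATA-binding protein gene tbp read 192, 188 and 199 in the foggy arrays against 174 in the wild type, a difference of +0.14 (SE 0.0954, adjusted p = 0.455). Its foggy arrays lay above the wild type by a small margin. The related factor tbpl1, which serves promoters that lack a TATA box, differed by +0.06 and +0.01 at 2 probe sets whose foggy arrays fell on both sides of the wild type. The tbpl2 gene, an oocyte form of the TATA-binding protein, read between 1.00 and 1.84 in all 4 arrays and was too dim to test.

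The taf genes had 18 probe sets for 15 genes, of which 15 were tested, and 0 passed. The unadjusted limma p was under 0.05 for 3 higher and 1 lower, beside 11.7% and 8.89% of all probe sets tested. The 3 were taf9, taf12 and taf15. The taf9 probe set read 701, 615 and 717 in the foggy arrays against 578 in the wild type (+0.22, adjusted p = 0.194). The taf12 probe set read 949 against 1104, 1036 and 1059 (+0.17, adjusted p = 0.180). TAF9 and TAF12 are histone-fold subunits that TFIID shares with the coactivator SAGA. The taf15 probe set read 705 against 813, 770 and 792 (+0.16, adjusted p = 0.194), and its product is an RNA-binding protein that also joins TFIID. Each of the 3 passed without foggy array 1 (adjusted p = 0.0322, 0.0269 and 0.0409) and in neither of the other fits that left out an array. In the fit without foggy array 1, 10.9% of all probe sets tested were called higher.

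The 1 lower taf gene was taf6, whose product pairs with TAF9 through histone folds. It read 44.7, 45.3 and 48.4 in the foggy arrays against 66.4 in the wild type (46.1 ± 1.99, SD, n = 3). The foggy arrays lay close together and all below the wild type. The difference of -0.41 (SE 0.152, 95% interval -0.74 to -0.07) had an adjusted p of 0.160. It did not pass in any of the 11 alternative settings that tested it, and the stricter filter removed it as dim. The taf1 probe set, for the largest TFIID subunit, read 17.3, 18.7 and 17.2 in the foggy arrays against 27.5 in the wild type. It was too dim to enter the test, and with no filter on dim probe sets it differed by -0.37 (adjusted p = 0.362).

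None of the other TFIID genes tested had an unadjusted limma p under 0.05. The difference was +0.19 for taf5, whose foggy arrays read 183, 182 and 185 against 158 in the wild type (adjusted p = 0.298). It was +0.10 for taf10, +0.04 for taf2, +0.03 for taf7 and -0.04 for taf8. The 3 probe sets of taf11 did not share a sign, at +0.14, +0.05 and -0.10, and at the last of them foggy array 3 read 129 where the other arrays read 169.7 to 175. The SAGA forms taf5l and taf6l differed by +0.06 and +0.05, and a second taf6l probe set was too dim to test. Of the genes for the TAF subunits that guide RNA polymerase I to ribosomal DNA, taf1a differed by 0.00 (95% interval -0.48 to +0.47) and taf1c was too dim to test. The median over the taf probe sets was +0.05, and +0.10 without foggy array 1. Of the 15 probe sets 11 lay above 0, beside 54.6% of all probe sets tested.

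The Mediator genes had 27 probe sets for 21 genes, of which 25 were tested, and 0 passed. The unadjusted limma p was under 0.05 for 2 higher and 0 lower, beside 11.7% and 8.89% of all probe sets tested. The Mediator median was +0.08, and +0.03 without foggy array 2. Of the 25 probe sets 17 lay above 0, beside 54.6% of all probe sets tested. All 3 foggy arrays lay above the wild type at 12 of the 25 and below it at 3, beside 36.2% and 28.4% of all probe sets tested.

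Mediator is built of a head and a middle that touch the polymerase, a tail that meets activators, a scaffold and a kinase module. The middle module had 7 probe sets tested for 5 genes, med4 and med10 by more than 1 probe set, and a median of +0.16. At 6 of the 7 probe sets all 3 foggy arrays lay above the wild type. Such shares were 36.2% over all probe sets tested and 44.2% in the brightest 25%. The modules were assigned after the values were seen, so this count is a description. The med31 probe set read 299, 278 and 305 in the foggy arrays against 241 in the wild type, a difference of +0.27 (SE 0.0881, adjusted p = 0.117), and passed without foggy array 1 (adjusted p = 0.0222). The med10 gene differed by +0.16 and +0.21 at the 2 tested probe sets, where the foggy arrays read 348, 358 and 395 against 325 at the first and 268, 232 and 252 against 214 at the other. The first passed without foggy array 1 (adjusted p = 0.0464), where 10.9% of all probe sets tested were called higher. The middle genes med7 and med21 differed by +0.11 and +0.05. The 2 probe sets of med4 differed in sign, at +0.21 and -0.02.

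The scaffold gene med14 read 123, 116 and 128 in the foggy arrays against 99.97 in the wild type, a difference of +0.25 (adjusted p = 0.262). In the head module, med17, which holds the head together, read 111 against 153, 126 and 149 (+0.31, SE 0.129, adjusted p = 0.203). Its foggy arrays all lay above the wild type, and the nearest of them by a small margin. The head genes did not share a direction. The genes med6 and med8 differed by +0.14 and +0.20 and med18 and med30 by +0.11 each, while med11, med20 and med22 differed by -0.19, -0.12 and -0.28. At med22 the foggy arrays read 57.2, 72.4 and 71.9 against 84.7, and a second, dim probe set read 10.5, 13.4 and 19.0 against 27.6. With no filter on dim probe sets the second differed by -0.53 (adjusted p = 0.264 in limma). The 3 probe sets of med28 lay within 0.03 of 0. The head median was +0.02.

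The tail genes lay close to 0. The differences were -0.03 for med15 and med29, +0.02 for med16, +0.01 for med24 and +0.08 for med25. At med29 the foggy arrays read 315, 309 and 318 against 320.2. In the kinase module, which holds polymerase and Mediator apart, med13b read 79.7, 64.3 and 53.2 in the foggy arrays against 54.2 in the wild type (+0.21, adjusted p = 0.589). These arrays spread to both sides of the wild type. The kinase gene cdk8, which has no med symbol, differed by -0.25 at one probe set (adjusted p = 0.206, and 0.0484 without foggy array 1) and by +0.12 at another. In the fit without foggy array 1, 7.98% of all probe sets tested were called lower.

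The TFIIIA and TFIIIC genes (prefix gtf3) had 9 probe sets for 7 genes. Of these 5 were tested and 0 passed limma's test, with 0 at an unadjusted p under 0.05. For TFIIIC, the factor that binds the internal promoters of transfer RNA genes, gtf3c4 read 44.6, 53.8 and 61.3 in the foggy arrays against 65.9 in the wild type (-0.25, adjusted p = 0.457). The gtf3c5 probe set read 117 against 135, 120.2 and 130.0 (+0.11), and gtf3c3 and gtf3c6 differed by +0.08 and +0.05 with foggy arrays on both sides. The foggy arrays spread widely here, from 46.8 to 76.6 at gtf3c6 and from 83.4 to 131 at gtf3c3. The tested gtf3aa probe set, for TFIIIA, read 31.2 against 28.2, 28.6 and 24.2 (-0.13). A second gtf3aa probe set, too dim to test, read 23.7 against 22.2, 21.2 and 24.4. The probe sets of gtf3ab and gtf3c2 were too dim to test. The median of the 5 was +0.05, and it turned to -0.01 without foggy array 2 and to -0.08 without foggy array 3.

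The genes named for RNA polymerase I (prefix polr1) had 8 probe sets for 6 genes. Of these 7 were tested and 0 passed limma's test, with 0 at an unadjusted p under 0.05. The largest subunit gene polr1a read 35.5, 44.6 and 30.4 in the foggy arrays against 29.6 in the wild type (+0.20, adjusted p = 0.606). The second largest, polr1b, read 69.2 against 77.3, 73.0 and 74.1 (+0.09). The polr1c gene, whose product polymerases I and III share, read 68.0 against 79.3, 77.1 and 92.7 (+0.23, adjusted p = 0.407). At these tested probe sets the foggy arrays all lay above the wild type, and the 95% interval of each difference included 0. A second polr1b probe set, too dim to test, read 13.2, 14.9 and 14.7 in the foggy arrays against 15.8, all below it. Of the 7 tested polr1 probe sets, 4 had all 3 foggy arrays above the wild type and 1 had them below. Over all probe sets tested these shares were 36.2% and 28.4%. The 2 probe sets of polr1g differed in sign, at +0.27 and -0.01, and foggy array 1 was the highest in both (136 and 97.4, against 92.1 and 80.5 in the wild type). The genes polr1e and polr1h differed by -0.06 and -0.04. The median was +0.09, with 4 of 7 above 0, beside 54.6% of all probe sets tested.

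The genes of RNA polymerase III alone (prefix polr3) had 6 probe sets for 6 genes, all tested, and 0 passed limma's test, with 0 at an unadjusted p under 0.05. The polr3d gene read 58.3, 49.1 and 52.9 in the foggy arrays against 42.9 in the wild type (+0.23, adjusted p = 0.447). The polr3k and polr3f genes differed by +0.15 and +0.10, and polr3e, polr3b and polr3c by -0.03, -0.01 and -0.05. At polr3e the 4 arrays nearly coincided, at 206, 205 and 200.2 in the foggy arrays against 208 in the wild type. The median was +0.05, and +0.10 without foggy array 2. Of the 6 probe sets 3 lay above 0, beside 54.6% of all probe sets tested.

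What these arrays could have shown differs from gene to gene. For the median member, a difference of 1.42-fold would have passed the test, and this limit ran from 1.20-fold for the member with the smallest error to 1.80-fold for taf1a. On this scale the 95% intervals of all 71 member probe sets tested lay within 2-fold in either direction, and those of 62 lay within 1.5-fold. The counts within 2-fold and 1.5-fold were not made over all probe sets tested. The intervals of 9 did not include 0, which are the 8 higher and 1 lower at an unadjusted limma p under 0.05. Of all probe sets tested 11.7% lay there higher and 8.89% lower. The intervals take the single wild-type array to vary like the foggy arrays, and they say nothing of whether that array was typical.

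**Figure D4:**
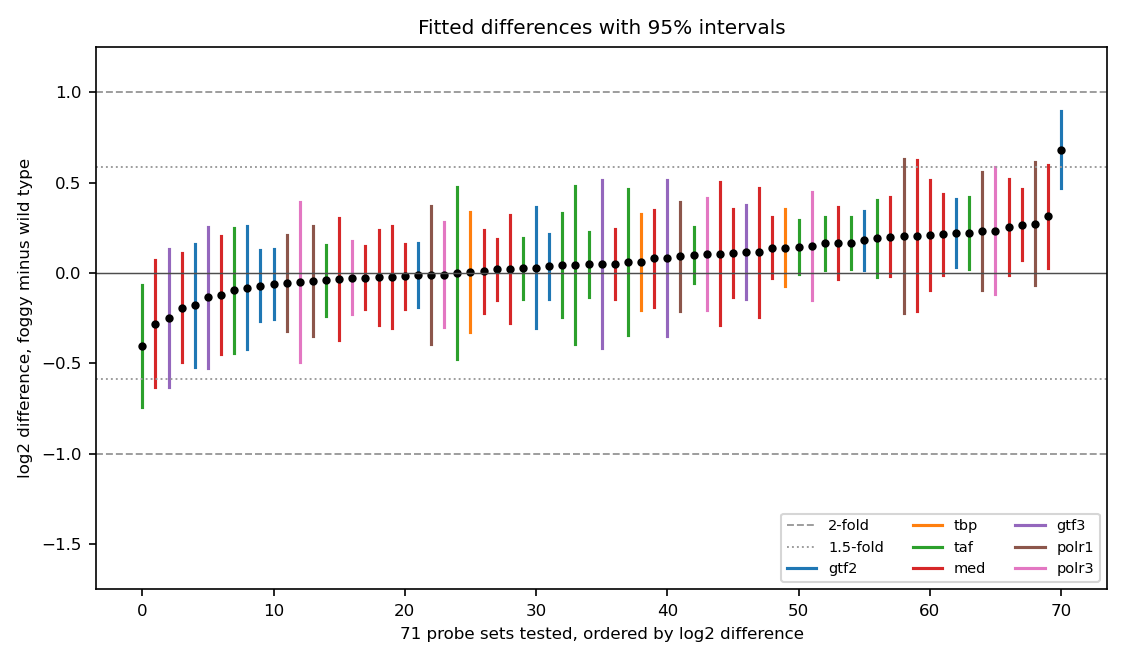
Fitted log2 difference, foggy minus wild type, with its 95% interval for the 71 member probe sets tested, ordered by difference and coloured by symbol prefix. Dashed lines mark 2-fold and dotted lines 1.5-fold on the log2(signal + pseudocount) scale. All 71 intervals lie within the dashed lines and 62 lie within the dotted lines.

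Leaving out foggy array 1 raised the number of members called from 1 to 8, all higher (11.3% of the members). In that fit 10.9% of all probe sets tested were called higher and 7.98% lower. The 8 were gtf2a1, gtf2b, gtf2e2, taf9, taf12, taf15, med10 and med31, and without foggy array 2 or 3 only gtf2a1 was called. Of all probe sets tested, 2.16% were called higher and 3.21% lower without foggy array 2, and 1.96% and 3.17% without foggy array 3. Foggy arrays 2 and 3, the pair kept without foggy array 1, were also the most alike pair. The SD of their log2 differences was 0.158, beside 0.196 and 0.192 for the pairs with foggy array 1. A smaller adjusted p did not always go with a smaller spread. At gtf2a1 the SE was 0.102 without foggy array 2 and 0.112 without foggy array 3, above 0.0953 with all 3 foggy arrays. The differences were +0.73, +0.70 and +0.68. Its adjusted p was nonetheless smaller in both fits that left out an array. Degrees of freedom also change when an array is left out. The parts of the spread and of the degrees of freedom in the 8 calls were not tested. Of 12 member genes with several probe sets 7 had more than 1 tested, and in 3 of these, gtf2f2a, med10 and tbpl1, all lay on one side of 0. For tbpl1 the second probe set crossed 0 under quantile normalization, under cyclic loess and without foggy array 2.

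Partners of these factors that carry other names were read beside them, each gene by its brightest probe set. The TFIIH partners (3 tested: ercc2, ercc3 and cdk7) and the factors of polymerases I and III outside these prefixes (8 tested) gave 0 calls. So did the regulators of the TATA-binding protein and SAGA genes (12 tested) and nucleolar ribosome biogenesis genes (16 tested). At an unadjusted p under 0.05 in limma these lists held 0, 2, 2 and 1 genes, of which 1, snapc2, was lower. Of all probe sets tested 11.7% lay there higher and 8.89% lower. The polymerase I activator ubtf read 470.3, 452 and 446 in the foggy arrays against 393 in the wild type (+0.20, adjusted p = 0.146). The snapc2 gene, for a factor at small nuclear RNA promoters, read 47.7 against 27.8, 28.2 and 38.7 (-0.43, adjusted p = 0.231). The SAGA gene supt20 read 34.2 against 60.2, 44.1 and 51.3 (+0.43, adjusted p = 0.203). The TFIIH helicase gene ercc3 and the nucleolar helicase gene ddx21 had differences of +0.29 and +0.22 and did not pass.

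Among 8 RNA polymerase II subunit genes 1 rose, polr2a, for the largest subunit, with a difference of +1.03 at its brightest probe set (adjusted p = 1.86e-04). Its other probe sets differed by +1.27 (adjusted p = 0.00122, and 0.127 with the doubled SD for the wild type) and by +0.07 (adjusted p = 0.873). Among 23 elongation partners 3 rose, the P-TEFb inhibitor hexim1 (+0.57), the Paf1 complex gene ctr9 (+0.46) and the P-TEFb cyclin ccnt2b (+0.37), and the median over the 23 was +0.18. Over all probe sets tested 2.36% were called higher, and 5.57% in the brightest 25%. At an unadjusted limma p under 0.05, 9 of the 23 elongation partners were higher and 0 lower. Of the 8 polymerase II subunit genes 2 were higher and 0 lower there. The shares over all probe sets tested were 11.7% and 8.89%. None of the 3 calls held in every setting. Under a constant variance the adjusted p was 0.0766 for hexim1, 0.128 for ctr9 and 0.168 for ccnt2b, and with the doubled SD it was 0.231, 0.739 and 0.739. With dim probe sets kept in, ctr9 and ccnt2b also missed the threshold (adjusted p = 0.0501 and 0.0538). The Spt5 gene supt5h itself differed by +0.25 (adjusted p = 0.137). All comparisons rest on the same 4 arrays, and the lists were not tested against one another.

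Markers of other tissues differed between the groups as well. Of 26 tested markers of muscle, red blood cells, lens, cartilage, pigment cells and retina 25 were lower in foggy and 0 higher. Over all probe sets tested 3.14% were called lower and 2.36% higher. The summed signal of the 26 was 8301 to 8697 in the foggy arrays against 20729 in the wild type. The red blood cell gene hbae3 read 1310, 1198 and 1162 in the foggy arrays against 5131 in the wild type. It weighs most in the wild-type sum. None of these markers was at 0, the lowest reading being 18.7. The 10 brain markers tested, such as the neuronal RNA-binding gene elavl3 and the radial glia gene fabp7a, gave signal in all 4 arrays. Their summed signal was 12836 to 13038 in the foggy arrays and 13540 in the wild type. By their brightest probe sets 2 were called higher (elavl4 and sox3) and 2 lower (fabp7a and gap43), beside 2.36% and 3.14% of all probe sets tested. The brightest of the brain markers, fabp7a, read 3808, 3936 and 3828 in the foggy arrays against 4535 in the wild type and weighs most in the brain sum. The part of these marker differences in the gtf2a1 result was not tested. In such bulk RNA, fewer cells of a type and less RNA per cell cannot be told apart. The samples are labelled brain, yet markers of other tissues gave signal in all 4 arrays. With 1 wild-type array, a difference between samples in the tissue taken cannot be told apart from genotype either.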

How the data were processed

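Embryonic brain RNA was measured on 4 Affymetrix arrays (1 wild type, 3 foggy). The deposited table holds linear intensity values per probe set, and which software summarised the probes is not given in the sources used here. Equal 2% trimmed means (150.03 in each array) show that the deposited values had been scaled, and they were used without further scaling. All 4 columns were mapped by the labels. The 115 control probe sets were left out, log2 was taken after adding a pseudocount of 16.3 (20th percentile), and the 4651 dimmest probe sets (mean below the 30th percentile) were dropped, 11 members among them (signals 1.00 to 30.3). Symbols came from the platform's older annotation. All 67 member symbols equal the current RefSeq symbol (GRCz12tu, names only). The annotation gave 1 symbol for 10802 probe sets, several for 135 and none for 4680.

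limma 3.58.1 (R 4.3.3) was run on the whole table with lmFit and eBayes, the variance following a trend in mean signal, two-sided, with Benjamini-Hochberg adjustment over 10851 probe sets and a threshold of 0.05. The spread came from the 3 foggy arrays (2 residual and 7.89 prior degrees of freedom), and permuting 4 arrays gives no p under 0.25. With so few arrays, their number limits the precision. The fit was tested on simulated data. These gave the wild-type array the spread of the foggy arrays, so they could not test whether the real one varies so. The members and lists were chosen with earlier results of these data known, and no set test was run. Mediator modules and the signal bins were assigned after the values were seen. Named were members past the test, the brightest probe set and the 3 largest differences per prefix, genes with several probe sets, members called without an array, and the listed partners called or most different. Other genes were named to account for every member. Alternatives were other pseudocounts, filters and scalings, no variance trend, a doubled wild-type SD, and leaving out each foggy array.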

Additional observations from a re-analysis of the deposited data

How the results depend on the processing

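The count of members called higher was 0 without the variance trend and 0 with the wild-type SD doubled (limma), and leaving out 1 foggy array gave 1 to 8; it was 1 under the other settings, also counted by gene. The count called lower was 0 throughout. The member median was +0.0387 with a pseudocount of 50, +0.0605 with the stricter filter and +0.0296 under cyclic loess, and 0.0418 to 0.0555 with an array left out. The median of all probe sets tested was -0.0009 under cyclic loess. The gtf2 median was -0.0192 under cyclic loess, the taf median +0.0984 with the stricter filter. With an array left out the medians ran from -0.0086 to 0.0150 for gtf2, from -0.0783 to 0.0823 for gtf3, from 0.0497 to 0.0952 for taf, from 0.0305 to 0.0622 for med, from 0.0713 to 0.0992 for polr1 and from 0.0268 to 0.0961 for polr3. Some differences near 0 that passed nowhere changed sign. With an array left out they ran from -0.0389 to 0.1661 for taf6l. At the tested probe set with the lowest difference they ran from -0.1315 to 0.0614 for polr1g and from -0.0906 to 0.0220 for med4. Likewise they ran from -0.1644 to 0.0355 for taf11 and from -0.0841 to 0.0828 for tbpl1. The other tested probe sets of polr1g, med4, taf11 and tbpl1 kept their sign in these fits. For the lower probe sets of med28 the ranges were -0.0437 to 0.0117 and -0.0704 to 0.0308. The med28 probe set above 0 was -0.0077 under cyclic loess. The lower tbpl1 probe set was -0.0016 under quantile normalization and -0.0196 under cyclic loess. The cause was not tested. No paired analysis was possible because the wild type has 1 array, so the groups share only 1 replicate number. Dim signals limit what could be read of taf1, taf1c, tbpl2, gtf3ab and gtf3c2.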
